A study of Mus musculus with 8 samples.

Results

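The genes described here are the serine/arginine-rich (SR) splicing factors and the heterogeneous nuclear ribonucleoproteins (hnRNPs) of mouse islet cells. Every gene symbol in the count tables that starts with Srsf and a digit, or with Hnrnp, was taken, without symbols holding -ps. This gave 31 of 24421 genes, 11 Srsf and 20 Hnrnp genes. The rule uses names alone, though it was set with earlier results of these data known. Islets came from 8-week-old male C57BL/6J mice, with the islets of 1 to 3 mice pooled in each sample. The 4 control samples had no operation, and the 4 PPTx samples were taken 2 days after removal of 50% of the pancreas (partial pancreatectomy). Since controls had no sham operation, loss of tissue and the operation itself cannot be told apart. Single cells were captured in droplets, and transcripts were counted as unique molecular identifiers (UMIs). Nothing states whether replicates came from separate experiments, so p-values measure the spread between these samples.

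Most mouse transcripts are spliced, and SR proteins and hnRNPs decide in large part which exons are kept. SR proteins bind exonic enhancers through their RNA recognition motifs and recruit the spliceosome through a tail of arginine-serine repeats, whereas hnRNPs coat nascent transcripts and often, though not always, keep splice sites from being used. Many SR genes hold a poison exon through which their own protein lowers their mRNA, and several members of both families also act in mRNA export, decay or translation.

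Of 1240 barcodes, 1232 passed the limits on genes and UMIs per cell, with 227439 to 1580152 UMIs per sample and a median of 3328 to 8677 UMIs per cell. A cell was given a type by its leading hormone, which had to reach 2 times the next, and this gave 952 insulin cells, 114 Gcg cells, 130 Ppy cells, 13 Sst cells and 1 Ghrl cell, with 22 cells left without a type. Insulin cells held the beta-cell genes G6pc2 at 1996 CPM, which is UMIs scaled to a common library total, and Ucn3 at 531 CPM over all cells, whereas Mafa had 2 UMIs in all of them. Gcg cells held Irx2 at 191 CPM against 0.785 CPM in insulin cells, and Ppy cells held Pyy at 113177 CPM against 819 CPM in insulin cells. Of 4 endothelial markers, Pecam1 and Cdh5 were at 0 in insulin cells, and Plvap and Kdr had 4 and 2 UMIs. Ins1 and Ins2 took 58.3% of all UMIs of insulin cells against 0.861% in Gcg cells and 0.956% in Ppy cells. Levels below were therefore normalised by edgeR's trimmed mean (TMM) and are called normalised CPM. They were scaled within each comparison and can be compared there only. UMIs are counted at the 3′ end and splice forms were not measured.

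The 31 genes held 17087 UMIs, which was 0.221% of all UMIs, with 6490 UMIs in SR and 10597 UMIs in hnRNP genes. Hnrnpk, a poly-C binding protein with KH domains, had the most, 1722 UMIs, followed by Hnrnpab with 1123 UMIs, Srsf6 with 1087 UMIs, Srsf5 with 1063 UMIs, Hnrnpu with 967 UMIs and Srsf3 with 874 UMIs. At the lower end were Srsf12 with 19 UMIs, Hnrnph2 with 28 UMIs, Hnrnpul1 with 37 UMIs and Hnrnpf with 85 UMIs, which entered none of the tests. Hnrnpa1 had 140 UMIs. Its count is uncertain, since many processed copies of Hnrnpa1 lie elsewhere in the genome and reads can be split between them.

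Promoters of Srsf3 and Hnrnpab are shown because these members differed between insulin cells with and without the cell cycle transcripts Top2a or Cdk1, as described further below. Both are the 250 bases before the RefSeq transcription start on GRCm38.p6, which is mm10, the build of the files. They are written 5′ to 3′ in the direction of the gene, with CCAAT or its reverse complement ATTGG in capitals. Srsf3 lies on the plus strand with its window at chr17:29032410-29032659, and Hnrnpab lies on the minus strand with its window at chr11:51606882-51607131.
Srsf3: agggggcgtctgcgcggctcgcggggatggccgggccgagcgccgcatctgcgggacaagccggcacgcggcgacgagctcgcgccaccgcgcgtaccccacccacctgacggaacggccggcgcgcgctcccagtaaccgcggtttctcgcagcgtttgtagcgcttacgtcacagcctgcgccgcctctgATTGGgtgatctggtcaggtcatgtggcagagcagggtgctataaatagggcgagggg
Hnrnpab: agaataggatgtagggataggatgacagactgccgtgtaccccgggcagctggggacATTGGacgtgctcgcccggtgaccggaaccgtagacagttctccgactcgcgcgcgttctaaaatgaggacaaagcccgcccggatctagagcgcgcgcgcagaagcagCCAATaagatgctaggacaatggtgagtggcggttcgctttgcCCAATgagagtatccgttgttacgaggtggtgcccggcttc

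Srsf3 held these letters at -58, and Hnrnpab at -193, -84 and -41, counted at the first base of each match from -1 just before the start. CCAAT, E2F and CHR letters were searched on both strands of windows from 250 bases before to 50 bases after the start, since all occur in promoters of many cell cycle genes, and none of these letters contains another. CCAAT stood in 17 of the 29 members with a window, 58.6%, against 41.1% of all 27025 genes with a window and 43.2% of the 3388 tested in the Top2a or Cdk1 comparison. The E2F letters TTTCCCGC, TTTGGCGC, TTTCGCGC and TTTGCCGC stood in 4 of 29 members, 13.8%, namely Hnrnpr, Hnrnpul1, Srsf1 and Srsf10, against 2.605% of all genes with a window and 5.05% of those tested. The CHR letters TTTGAA and TTCGAA stood in 7 of 29 members, 24.1%, against 21.7% and 15.2%. These matches describe the windows only. Hnrnpll and Hnrnpul2 are named only.

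The levels of the members with the most UMIs overlapped between the hormone-defined cell types. The types were compared over samples with at least 5 cells of a type, 8 for insulin, 6 for Gcg and 7 for Ppy cells. Hnrnpk ran from 206 to 266 normalised CPM in insulin cells (median 235), from 176 to 345 in Gcg cells (median 293) and from 124 to 330 in Ppy cells (median 260). Its order by mean was Gcg, Ppy and insulin cells, with means of 273 ± 62.1 (SD, n = 6), 242 ± 72.3 (SD, n = 7) and 236 ± 21.1 (SD, n = 8), with overlapping ranges. Within the 5 samples that held both types Hnrnpk was lower in Ppy than in Gcg cells in 5 of 5, with a log2 fold change of -0.27 (95% interval -0.70 to 0.15), and the adjusted p of 0.703 in edgeR missed the threshold. Hnrnpab, an A/B-type RNA binding protein, had means of 169 ± 45.6 in Gcg, 150 ± 28.4 in insulin and 149 ± 52.1 normalised CPM in Ppy cells, each SD over the same samples. Srsf3, the smallest SR protein and also an mRNA export adaptor, lay at 109 ± 22.3 in insulin, 150 ± 47.3 in Gcg and 151 ± 46.2 normalised CPM in Ppy cells, with its lowest Gcg sample, at 81.6, inside the insulin range of 76.6 to 142 and its lowest Ppy sample, at 65.9, below that range. Srsf5 and Srsf6, which bind exonic enhancers, had means of 145 ± 37.0 and 151 ± 24.4 normalised CPM in insulin cells. Their means were 170 ± 61.9 and 149 ± 75.0 in Gcg, and 172 ± 76.2 and 169 ± 34.3 in Ppy cells. In each of these members the ranges of the types overlapped.

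**Figure D1:**
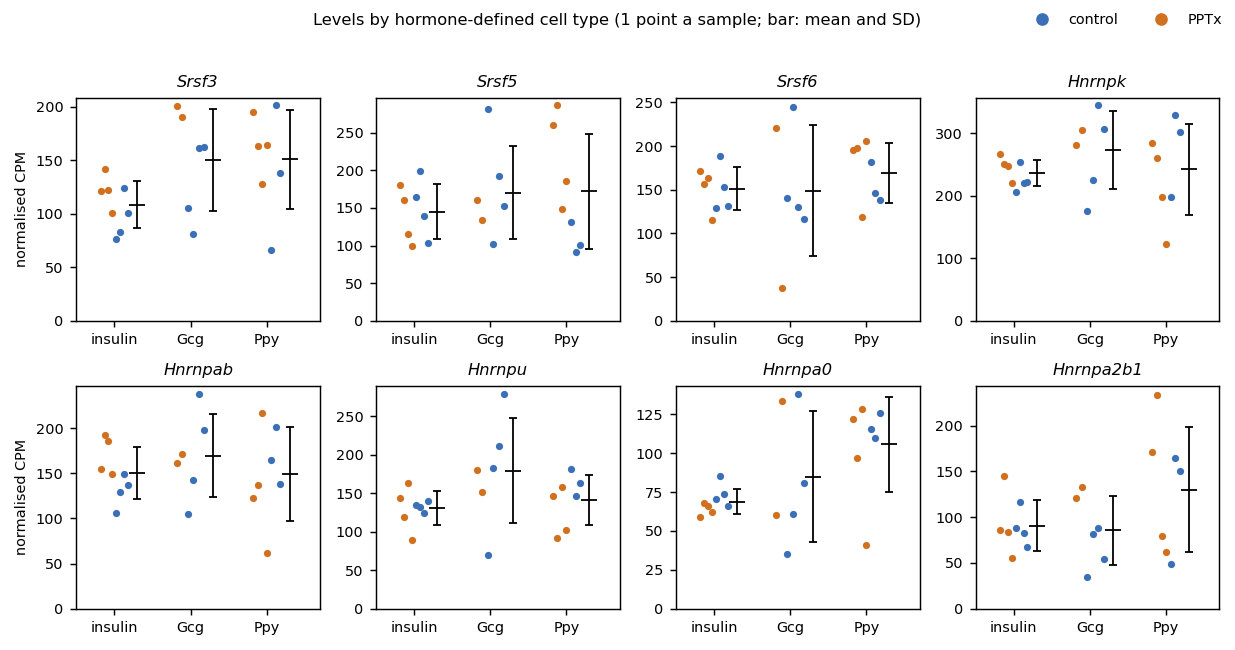
Normalised CPM (vertical axes) of the 6 members with the most UMIs and of Hnrnpa0 and Hnrnpa2b1 in insulin, Gcg and Ppy cells, 1 point a sample, blue for control and orange for PPTx, with the mean and SD as a bar. Levels of the types overlap in every panel, and the Gcg and Ppy libraries, which hold fewer cells, scatter more widely than the insulin libraries.

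Against insulin cells, Gcg cells had a higher level of Hnrnpu, a nuclear scaffold protein that binds chromatin and RNA. Hnrnpu was at 70.3, 184, 211 and 279 normalised CPM in Gcg cells of control replicates 1 to 4 and at 181 and 152 in PPTx replicates 2 and 3, and the 8 insulin libraries lay between 89.6 and 164 with a median of 134. Control replicate 1, with 6 Gcg cells, lay below every insulin library, and 4 of 6 samples were higher in Gcg cells. The value of control replicate 1 rests on few UMIs, from the smallest Gcg library tested, with 15231 UMIs in all. That library also had the largest TMM factor of the fit, 1.87, and a larger factor lowers the normalised CPM. Its place below the insulin libraries is therefore uncertain. The log2 fold change was 0.56 ± 0.21 (SE), a 1.47-fold level, with an adjusted p of 0.0375 (quasi-likelihood fit in edgeR, each sample a block, Benjamini-Hochberg adjustment). Of 27 members tested, 1 was called, whereas 22.3% of all 4560 genes tested were called in either direction. At an unadjusted p under 0.05 stood 4 members, all higher in Gcg cells, beside 32% of all genes tested, and 20 of 27 had a log2 fold change above 0 beside 45.7%. The next smallest p-values belonged to Hnrnph1 and Hnrnph3, which bind runs of G, to Srsf3 and to Hnrnpdl. Their log2 fold changes of 0.58, 0.57, 0.48 and 0.42 were not called, with adjusted p of 0.0795, 0.149, 0.119 and 0.211. The median log2 fold change was 0.17 over 10 SR genes and 0.38 over 17 hnRNP genes, beside -0.07 over all genes tested. Hnrnpu was no longer called without control replicate 3, control replicate 4 or PPTx replicate 2, with the leading hormone at 4 times the next, without a filter on low levels or with cells thinned to equal UMIs, and over all alternatives its log2 fold change stayed above 0. Without TMM the median of all genes rose to 0.44 and 14 members were called.

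In Ppy cells, Hnrnpa0 and Hnrnpa2b1 were higher than in insulin cells. Both belong to the A/B hnRNPs, and Hnrnpa2b1 is also known for RNA transport. Hnrnpa0 stood at 115, 110 and 126 normalised CPM in Ppy cells of control replicates 2 to 4 and at 122, 97.0, 128 and 41.2 in PPTx replicates 1 to 4. All but PPTx replicate 4 lay above the highest insulin library, since insulin cells ran from 59.0 to 85.3 with a median of 67.2. The value of PPTx replicate 4 rests on few UMIs, from the smallest Ppy library, with 48552 UMIs in all. The log2 fold change was 0.67 ± 0.23 (SE), with an adjusted p of 0.0197 and 6 of 7 samples higher (same edgeR fit). Hnrnpa2b1 was at 49.4, 165 and 151 normalised CPM in the same control and at 171, 234, 79.0 and 61.8 in the same PPTx samples, against 55.2 to 145 in insulin cells, so that the ranges overlapped widely. Its log2 fold change was 0.57 ± 0.21 (SE), with an adjusted p of 0.0310 and 5 of 7 samples higher. The Ppy library of control replicate 3 also stood apart in delta-cell markers, which summed to 19106 CPM against 286 to 824 CPM in the other 6 libraries, and without this sample Hnrnpa0 was at 0.67 with an adjusted p of 0.0378. These 2 of 27 members were called beside 23.9% of 4560 genes. At an unadjusted p under 0.05 stood 5, all higher in Ppy cells, beside 33.4% of all genes tested, and 20 of 27 were above 0 beside 48.5%.

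Hnrnpul2, a relative of Hnrnpu, Hnrnpc, which binds uridine tracts, and Srsf5 followed at log2 fold changes of 0.56, 0.48 and 0.38 in Ppy against insulin cells and were not called, with adjusted p of 0.0538, 0.0672 and 0.131. The median log2 fold change was 0.01 over 10 SR and 0.35 over 17 hnRNP genes, beside -0.02 over all genes tested. Hnrnpa2b1 was not called by DESeq2, and its log2 fold change was -0.01 when cells were thinned to equal UMIs. Hnrnpa0 was not called in thinned cells, at 0.48 with an adjusted p of 0.420, or without a filter on low levels, at 0.39 with an adjusted p of 0.439, and its adjusted p ran from 0.00284 to 0.439 over its alternatives. Nor was Hnrnpa0 called without control replicate 4, PPTx replicate 1, PPTx replicate 2 or PPTx replicate 3, with log2 fold changes of 0.63, 0.59, 0.68 and 0.62, and Hnrnpa2b1 was not called without control replicate 3, control replicate 4, PPTx replicate 1 or PPTx replicate 2, at 0.51, 0.48, 0.47 and 0.47.

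Between Ppy and Gcg cells, 0 of 27 members were called by edgeR and 0 by DESeq2, and 2.81% of the 4560 genes tested were called. An unadjusted p under 0.05 was found for 3 members, beside 12.3% of all genes. Hnrnpul2 came closest. It was at 35.1, 40.8, 76.7 and 108 normalised CPM in Gcg cells of control replicates 1 to 4 and at 20.1 and 19.0 in PPTx replicates 2 and 3, with 1 UMI each in control replicate 1 and both PPTx samples, and in Ppy cells it was at 148, 202 and 87.9 in control replicates 2 to 4 and at 106, 92.6, 128 and 61.8 in PPTx replicates 1 to 4. The Ppy libraries were higher in 4 of 5 samples with both types, with a log2 fold change of 0.99 ± 0.34 (SE) and an adjusted p of 0.0952. Without control replicate 4 it was called, at 1.41 with an adjusted p of 0.0221, and over its alternatives the adjusted p ran from 0.0221 to 0.908. Hnrnpa2b1 at 0.66 and Hnrnpu at -0.52 were the other members with an unadjusted p under 0.05, with adjusted p of 0.338 and 0.383. Hnrnpab at -0.38 and Hnrnpc at 0.37 followed. The comparisons of Gcg and of Ppy cells share their insulin libraries.

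Sst cells were too few for a test, since no sample held 5 of them. Over all 13 cells, Srsf6 had 21 UMIs of 41257, which was 509 CPM with a 95% Poisson interval of 315 to 778 CPM, and Srsf5 had 20 UMIs, 485 CPM with an interval of 296 to 749 CPM. In pooled Gcg cells, where hormone transcripts other than insulin also take a large share, Srsf5 stood at 208 CPM with an interval of 169 to 252 CPM. In pooled Ppy cells it was 194 CPM with an interval of 163 to 228 CPM. These intervals cover counting error only, over cells of 6 samples for Sst cells, and the difference has no replicate check.

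Genes that work with these proteins were set beside the 22.3% and 23.9% of all genes called in Gcg and in Ppy against insulin cells. Tra2b, an SR-like splicing activator, was higher in Gcg than in insulin cells, with a log2 fold change of 0.91 ± 0.30 (SE) and an adjusted p of 0.0128, and it was the single call among 15 tested kinases, importers and partners of SR proteins. Among 23 other RNA-binding splicing regulators tested, the genes called higher in Gcg cells included Khdrbs1 at 1.17 and Mbnl2 at 1.13, and Ptbp3, a polypyrimidine tract binding protein, was lower at -0.70. In Ppy against insulin cells the calls were Mbnl2 at 0.91, Srrm1 at 0.79, Matr3 at 0.58, Ptbp3 at -0.65 and the Sm protein gene Snrpd2 at -1.34. Of the core spliceosome, 0 of 11 U2 and branch site genes and 0 of 8 tri-snRNP genes were called in either comparison by edgeR, and 0 had an unadjusted p under 0.05.

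Insulin cells with at least 1 UMI of Top2a or Cdk1, which are transcribed from S phase to mitosis, had higher levels of Srsf3 and Hnrnpab than the other insulin cells. There were 48 such cells, 10 from control and 38 from PPTx samples, and 904 without. Of these, 6 samples held at least 3 such cells and entered the test, namely control replicates 3 and 4 with 4 cells each and PPTx replicates 1 to 4 with 7, 17, 9 and 5 cells. Neither Top2a nor Cdk1 was tested. As a description of the split, Pcna, the sliding clamp of DNA replication, stood at 180 CPM in pooled cells with and 18.5 CPM in cells without these UMIs, and Mcm6, of the replicative helicase, at 135 and 18.1 CPM. No test is given for such genes, since the split and the filter on level largely fixed their difference.

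Srsf3 without these UMIs was at 108 and 90.6 normalised CPM in control replicates 3 and 4 and at 101, 135, 110 and 94.9 in PPTx replicates 1 to 4. With them it was at 412 and 264 in the controls and at 266, 158, 211 and 102 in PPTx samples. The level was higher in 6 of 6 samples, and the 2 sets overlapped only through PPTx replicate 4, whose value rests on 3 UMIs. The log2 fold change was 1.08 ± 0.24 (SE), a 2.11-fold level, with an adjusted p of 0.000492 (quasi-likelihood fit in edgeR, each sample a block). Srsf3 lies at chr17:29032660-29043372.

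Hnrnpab without these UMIs was at 140 and 136 normalised CPM in control replicates 3 and 4 and at 144, 168, 161 and 137 in PPTx replicates 1 to 4. With them it was at 282 and 87.9 in the controls and at 207, 390, 377 and 204 in PPTx samples. It was higher in 5 of 6 samples, and control replicate 4, with 3 UMIs, was lower. The log2 fold change was 0.86 ± 0.23 (SE), with an adjusted p of 0.00547. In cells thinned to equal UMIs, described below, Hnrnpab was not called and its log2 fold change was much smaller. Hnrnpab lies at chr11:51600100-51606881. Without PPTx replicate 2 its log2 fold change was 0.74 and without PPTx replicate 3 it was 0.72, and it was not called in either case, with adjusted p of 0.113 and 0.104 in a range of 1.94e-06 to 0.953 over its alternatives, whereas Srsf3 was called without each of the 6 samples in turn.

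These were 2 of 25 members tested, beside 5.68% of 4329 genes tested. At an unadjusted p under 0.05 stood 5 members beside 17.1% of all genes tested, and 15 of 25 were above 0 beside 38.7%. Hnrnpa0 came next. It was at 67.9, 60.9, 52.3, 61.9, 63.8 and 57.8 normalised CPM without and at 173, 146, 103, 112, 77.6 and 68.2 with Top2a or Cdk1 UMIs, in the order of samples used above. Every sample was higher and the sets did not overlap, though 67.9 without and 68.2 with these UMIs lay close together. The log2 fold change was 0.86 ± 0.31 (SE) with an adjusted p of 0.0832, so that Hnrnpa0 was not called. In thinned cells split by whole counts, described below, its sign turned. Hnrnpk also did not overlap, with 201 to 249 normalised CPM without and 255 to 355 with these UMIs, a log2 fold change of 0.41 ± 0.22 (SE) and an adjusted p of 0.314. The 2 members without overlap stand beside 4.39% of all genes tested.

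Srsf5 had the opposite sign. It was at 140, 101, 181, 163, 120 and 97.2 normalised CPM without and at 86.7, 117, 118, 74.4, 55.5 and 34.1 with Top2a or Cdk1 UMIs in the same order, lower in all samples but control replicate 4. Its log2 fold change was -0.80 ± 0.31 (SE), with an adjusted p of 0.116. Hnrnpd, which binds AU-rich elements and takes part in mRNA decay, was at 0.94 ± 0.40 (SE), with an adjusted p of 0.166 and 4 of 6 samples higher. Apart from Hnrnpa0, Hnrnpk, Srsf5 and Hnrnpd, the members not called lay on both sides of 0 with wide intervals. Among them were Srsf10 at 0.80 (95% interval -0.13 to 1.73), Hnrnph3 at 0.59 and Srsf4 at 0.57. Srsf6 at -0.49 (-1.04 to 0.07) and Srsf9 at -0.57 (-1.32 to 0.19) lay below 0. Hnrnpu at 0.01 (-0.53 to 0.55) and Srsf1, the prototype SR protein, at 0.04 (-0.58 to 0.66) were nearest to 0. The median log2 fold change was 0.18 over 10 SR and 0.14 over 15 hnRNP genes, beside -0.16 over all genes tested.

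**Figure D2:**
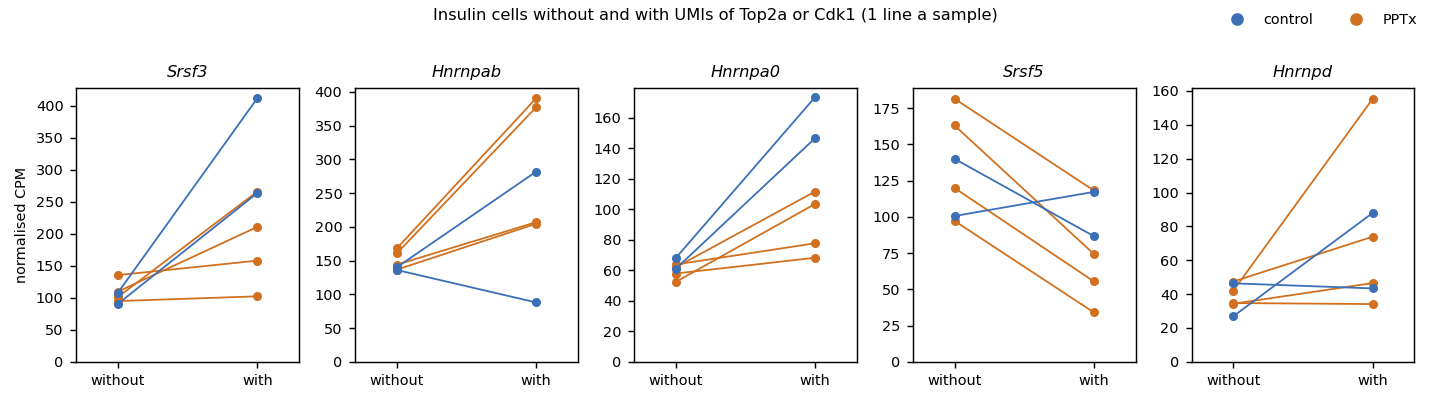
Normalised CPM (vertical axes) of 5 members in insulin cells without and with UMIs of Top2a or Cdk1, 1 line a sample, blue for control and orange for PPTx. All 6 lines rise for Srsf3 and Hnrnpa0 and 5 of 6 rise for Hnrnpab, and 5 of 6 fall for Srsf5.

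Pooled over samples, cells with Top2a or Cdk1 UMIs were also deeper, with a median of 6997.5 UMIs against 5999.5 UMIs, and insulin took 53.2% of their UMIs against 58.6%. Within control replicate 4 their median was lower, at 5889 against 7203 UMIs. In PPTx replicate 2 it was nearly equal, at 5167 against 5159 UMIs, and in the other samples of the test it was higher. When each cell was thinned to 2700 UMIs and split by its thinned counts, 4 samples with 24 such cells were left for the test instead of 6 with 46. No member was then called, and the log2 fold changes were 0.68 ± 0.51 (SE) for Srsf3 and 0.12 ± 0.51 (SE) for Hnrnpab, with adjusted p of 0.500 and 0.953. With thinned counts but the split by whole counts, chosen after seeing the data, 6 samples with 42 such cells remained, and Srsf3 at 0.76 ± 0.39 (SE) and Hnrnpab at 0.28 ± 0.36 (SE) were not called, with adjusted p of 0.217 and 0.695, whereas Hnrnpl was called lower. Hnrnpa0 was at -0.43 there. Over the alternatives of this comparison the adjusted p of Srsf3 ran from 4.04e-07 to 0.500. Without a filter on low levels Srsf3 at 0.73 and Hnrnpab at 0.50 were not called and Srsf5 was. Gcg transcripts stood at 4605 CPM in pooled cells with and 306 CPM in pooled cells without these UMIs. The high alpha-cell level lay in 1 library. With these UMIs the summed 6 alpha-cell markers were at 21144 CPM in PPTx replicate 2. They were at 2780, 2352 and 1899 CPM in PPTx replicates 1, 3 and 4. The PPTx libraries without these UMIs ran from 1665 to 2628 CPM. In the control libraries the alpha-cell markers ran from 654 to 1546 CPM with and from 1661 to 1705 CPM without. The 3 delta-cell markers summed to 21.8 and 79.3 CPM with and to 310 and 1578 CPM without these UMIs in control libraries, and to 0 to 127 CPM with and 152 to 906 CPM without them in PPTx libraries. Ppy and Pyy, the PP-cell markers, summed to 65.4 and 238 CPM with and 295 and 1678 CPM without in control libraries, and to 180 to 3672 CPM with and 2223 to 5455 CPM without in PPTx libraries. Both sums were lower in cells with these UMIs in 6 of 6 samples. Of the 9 beta-cell markers, pooled G6pc2 was at 1349 CPM with and 2034 CPM without these UMIs. Ucn3 was at 358 and 542 CPM and Nkx6-1 at 64.8 and 133 CPM. Ins2 at 446374 and 503820 CPM and Slc2a2 at 194 and 220 CPM were lower as well. Ins1 at 85486 and 82315 CPM and Iapp at 50619 and 48702 CPM were higher with these UMIs. So were Pdx1 at 8.45 and 6.48 CPM and Mafa at 2.82 and 0.166 CPM, from 3 and 1 UMIs in the cells with them. The part of these markers in the result was not tested. With the leading hormone at 4 times the next, Srsf3 at 1.09 and Hnrnpab at 0.85 were called as before.

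Pooled over samples, the levels were also set beside the number of Top2a and Cdk1 UMIs, as a description. Srsf3 had 186 CPM in the 25 cells with 1 such UMI and 286 CPM in the 23 cells with 2 or more, with 95% Poisson intervals of 122 to 270 and 218 to 368 CPM, against 93.6 CPM with an interval of 86.0 to 102 CPM in cells without. Hnrnpab had 268 CPM and 367 CPM, with intervals of 191 to 367 and 290 to 459 CPM, against 128 CPM. The intervals of the 2 classes with such UMIs overlapped for both genes. Srsf3 was at 376 CPM in control and 207 CPM in PPTx cells with these UMIs, with intervals of 254 to 537 and 157 to 268 CPM, from 30 and 57 UMIs. That difference was not tested over samples.

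The cells without Top2a or Cdk1 were divided further by the 15 replication markers, a split made after the data had been seen. Of these cells 75 held at least 2 UMIs of the markers, such as Mcm2, Mcm5 and Pcna, which serve DNA replication, and 702 held none. Over 6 samples with at least 3 of the former, 0 of 25 members were called by edgeR, beside 0.446% of 4036 genes. The 5 members at an unadjusted p under 0.05, all higher, beside 5.9% of all genes, were Hnrnpdl at 0.65, Hnrnpm at 0.71, Srsf2 at 0.60, Hnrnpd at 0.73 and Hnrnph1 at 0.49, with adjusted p of 0.340 to 0.810. Srsf3 differed by -0.10 with a 95% interval of -0.56 to 0.36, and Hnrnpab by 0.30 with an interval of -0.08 to 0.68, both on the log2 scale. In pooled CPM, Srsf3 was at 102 in these cells and at 91.1 in cells with no marker UMI, and Hnrnpab was at 168 and 118. The difference between this split and that by Top2a or Cdk1 was not tested.

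**Figure D3:**
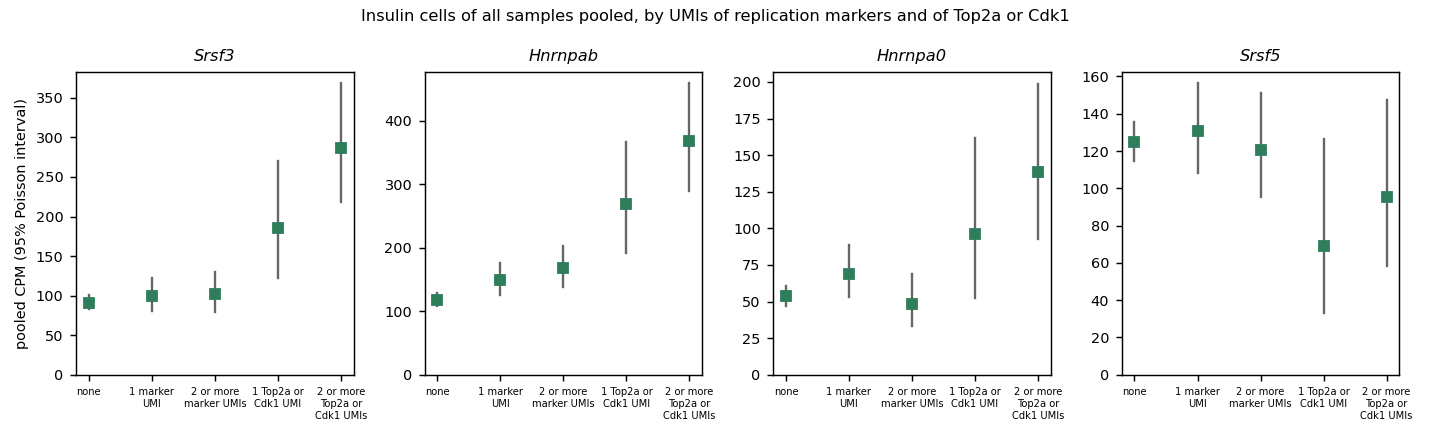
Pooled CPM with 95% Poisson intervals (vertical axes) of Srsf3, Hnrnpab, Hnrnpa0 and Srsf5 in insulin cells of all samples, from left to right cells with no UMI of Top2a, Cdk1 or a replication marker, with 1 and with 2 or more marker UMIs but no Top2a or Cdk1, and with 1 and with 2 or more UMIs of Top2a or Cdk1. Srsf3 stays near 100 CPM in the first 3 classes and stands at 186 and 286 CPM in the last 2.

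Of the partners, 2 Sm protein genes were higher in cells with Top2a or Cdk1, Snrpe at a log2 fold change of 1.47 ± 0.39 (SE) and Snrpd1 at 1.40 ± 0.34 (SE), with adjusted p of 0.00571 and 0.00128, among 9 Sm and U1 genes tested, beside 5.68% of all genes called. Sm proteins form the ring at the core of spliceosomal snRNPs. Of 12 U2 and branch site genes, 7 tri-snRNP genes, 16 kinases, importers and partners of SR proteins and 23 other regulators, 0 were called by edgeR, with 1, 5, 1 and 2 genes at an unadjusted p under 0.05, beside 17.1% of all genes tested. The medians of these lists were 0.01, -0.34, -0.13 and 0.12.

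PPTx did not shift any member past the threshold in insulin cells. Of 25 members tested, 0 were called by edgeR and 0 by DESeq2, and 0.322% of 4043 genes were called. At an unadjusted p under 0.05 stood 1 member, beside 10.5% of all genes tested, and 13 of 25 were above 0 beside 48.7%. That 1 member was Hnrnpab, at 92.2, 111, 126 and 117 normalised CPM in control replicates 1 to 4 and at 131, 162, 159 and 125 in PPTx replicates 1 to 4. Only control replicate 3 reached into the PPTx range. The log2 fold change was 0.35 with a 95% interval of 0.01 to 0.68 and an adjusted p of 0.461.

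Srsf2, the SR protein SC35 of nuclear speckles, was at 56.4, 51.1, 55.8 and 36.5 normalised CPM in control and at 79.9, 66.6, 81.3 and 36.7 in PPTx samples, with replicate 4 low in both groups and a log2 fold change of 0.47 (95% interval -0.03 to 0.97, adjusted p 0.496). Hnrnpl, which binds CA repeats, was at 61.5, 86.6, 77.8 and 68.4 in control and at 59.3, 63.3, 63.4 and 46.3 in PPTx samples, a change of -0.34 (-0.72 to 0.05, adjusted p 0.519). Srsf3 was at 66.6, 71.1, 105 and 86.0 in control and at 103, 119, 104 and 84.9 in PPTx samples, a change of 0.28 (-0.11 to 0.66, adjusted p 0.615). The ranges overlapped in each. Hnrnph3 at -0.30 had an adjusted p of 0.703. Over the 25 members the median was 0.00 beside -0.01 over all genes tested, the 95% intervals lay between -0.80 and 0.97, and 0 members had groups without overlap beside 6.53% of all genes tested.

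Srsf6 stood at a log2 fold change of 0.00 with an interval of -0.36 to 0.36 and Hnrnpk at 0.11 with an interval of -0.19 to 0.41. A doubling by PPTx lay outside both intervals, as it did for each of the 25 members tested. Beside this, the summed 4 stellate-cell markers ran from 0 to 21.8 CPM in insulin cells of control and from 1.04 to 228 CPM in those of PPTx samples. The summed markers of PP cells, Ppy and Pyy, ran from 240 to 1637 CPM in control and from 2023 to 5285 CPM in PPTx samples, without overlap. The part of either in the values was not tested. Of the insulin cells, 1.28% to 3.33% held Top2a or Cdk1 UMIs in control and 3.65% to 8.74% in PPTx samples, without overlap. Hnrnpab and Srsf3 were the members called higher in such cells. With such cells left out, 0 members were called between PPTx and control. The part of their share in the values was not tested further. Of the partner lists, 0 genes were called by edgeR in any of the 5, with 3 genes in all at an unadjusted p under 0.05, beside 10.5% of all genes tested.

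In Ppy cells, from 3 control and 4 PPTx samples with at least 5 of them, 0 of 26 members were called by edgeR and 0 by DESeq2, beside 0.0466% of 4292 genes. At an unadjusted p under 0.05 stood 1, beside 4.43% of all genes tested. That 1 was Srsf5, at 123, 84.6 and 92.2 normalised CPM in control replicates 2 to 4 and at 245, 274, 144 and 179 in PPTx replicates 1 to 4, so that the groups did not overlap. Srsf11 was the other member whose groups did not overlap, which makes 2 beside 6.69% of all genes tested. In the same libraries the summed 9 beta-cell markers ran from 3808 to 9970 CPM in control and from 8941 to 26669 CPM in PPTx samples, with Mafa at 0 in both, and the 5 acinar markers from 0 to 35.6 CPM and from 16.8 to 103 CPM. The 3 delta-cell markers, Sst among them, summed to 393, 19106 and 352 CPM in control replicates 2 to 4 and to 286 to 824 CPM in PPTx samples, so that control replicate 3 stood apart. Without that sample Srsf5 had a log2 fold change of 1.04 with an adjusted p of 0.997. The part of the beta-cell and acinar markers in the difference was not tested. The control values of Srsf5 rest on 8, 5 and 8 UMIs. The log2 fold change was 1.13 ± 0.38 (SE), with an adjusted p of 0.864. In insulin cells Srsf5 was at 143, 171, 118 and 88.4 in control and at 153, 135, 98.1 and 83.0 in PPTx samples, a change of -0.09 (95% interval -0.55 to 0.37). The difference of the PPTx effect between Ppy and insulin cells was 1.11 ± 0.39 (SE) for Srsf5, with an adjusted p of 0.786. Of 26 members tested for this difference, 0 were called by edgeR and 0 by DESeq2, with 1 at an unadjusted p under 0.05, beside 0.0238% called and 5.93% at that unadjusted p of 4200 genes. Hnrnpm at 1.14, Hnrnph3 at 0.91, Srsf11 at -0.70 and Hnrnph1 at 0.57 followed in Ppy cells, each with an adjusted p of 0.998.

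**Figure D4:**
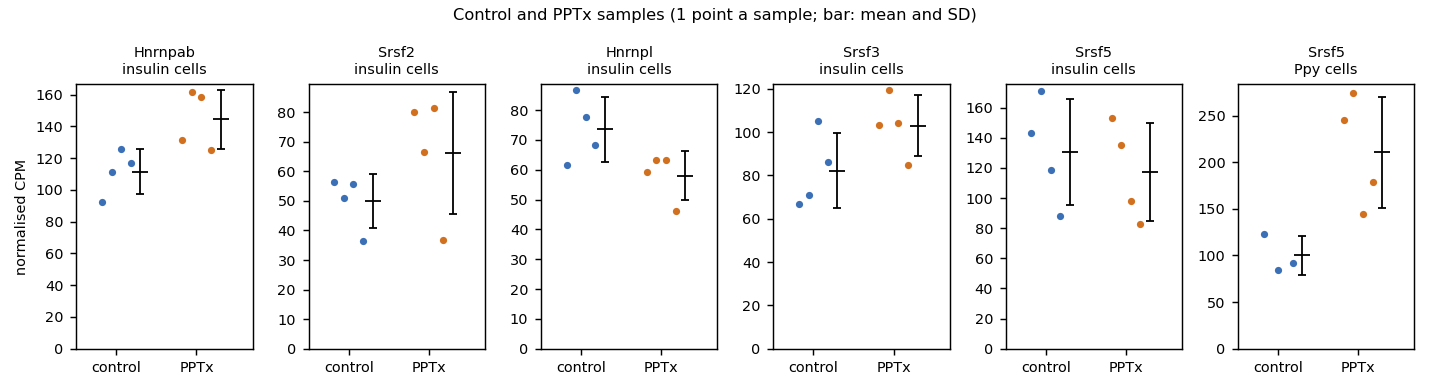
Normalised CPM (vertical axes) of 4 members and Srsf5 in insulin cells and of Srsf5 in Ppy cells, 1 point a sample, in control (blue) and PPTx (orange), with the mean and SD as a bar. The groups overlap in every insulin-cell panel and are apart for Srsf5 in Ppy cells, where it was not called.

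Across the 4 main comparisons, a member was called in at most 1. Hnrnpu was called between Gcg and insulin cells, Hnrnpa0 and Hnrnpa2b1 between Ppy and insulin cells, Srsf3 and Hnrnpab with Top2a or Cdk1, and none after PPTx. A call in one comparison and not in another does not show that they differ, and the differences between comparisons were not tested.

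**Figure D5:**
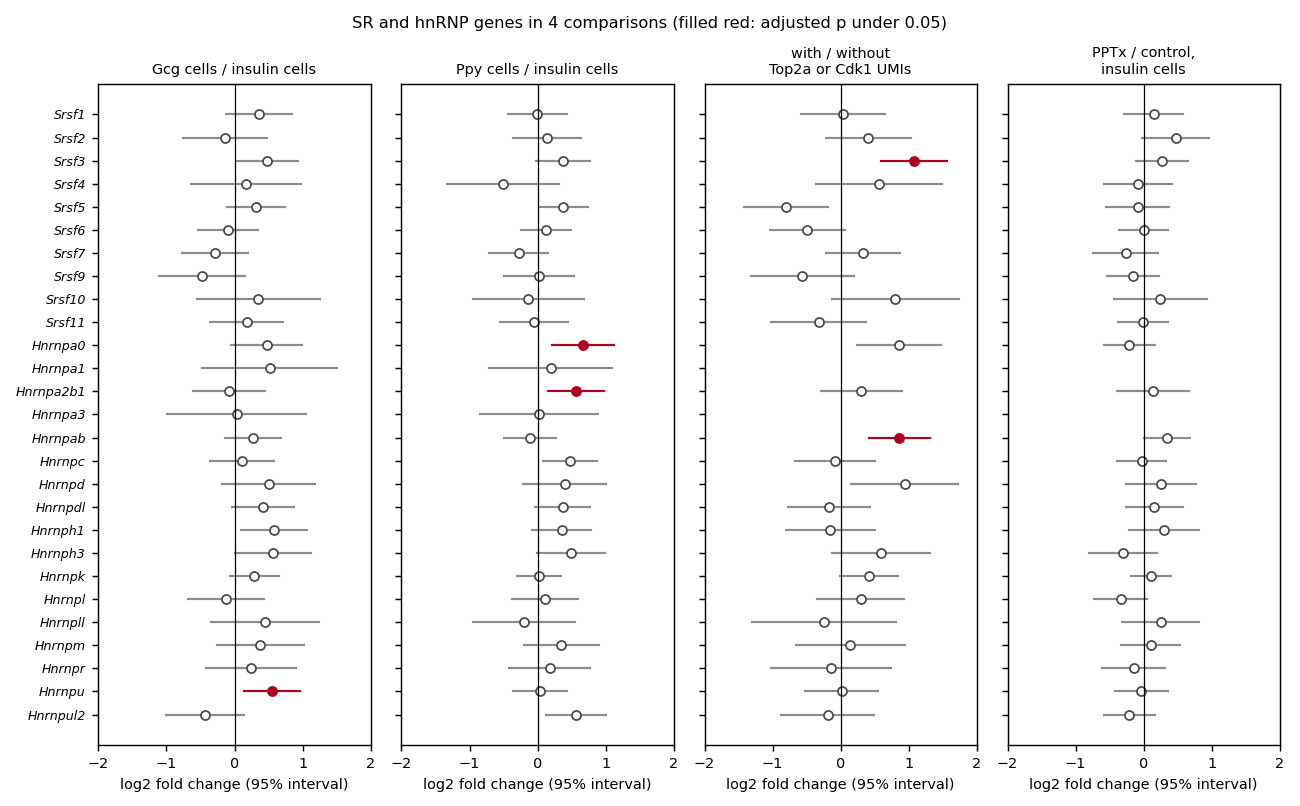
Log2 fold change (horizontal axes) of each tested member with its 95% interval in Gcg against insulin cells, Ppy against insulin cells, insulin cells with against without Top2a or Cdk1 UMIs and PPTx against control insulin cells, with members called at an adjusted p under 0.05 in filled red. The 5 called values are all above 0, and most intervals cross 0.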

How the data were processed

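Single-cell libraries of 4 control and 4 PPTx samples were used. The authors deposited 1 table of raw UMI counts per gene symbol and cell for each sample, not normalized. Per the paper's methods they aligned reads to mm10 and counted with Cell Ranger, and the submitters' processing notes name bcl2fastq. The methods name a SureCell kit on the ddSEQ system, the labels a Chromium kit. Those methods give Cell Ranger also for the filtering of barcodes but state no threshold, and the lowest deposited total was 2005 UMIs. No doublet caller was run. Of all barcodes 1 was shared between samples.

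The study's limits of 100 to 3000 genes and 100 to 20000 UMIs per cell were applied. Counts were summed per sample and class, and genes with a mean pooled CPM of at least 20 over the compared groups were tested with edgeR 4.0.16 (glmQLFit and glmQLFTest, TMM, Benjamini-Hochberg over all genes tested, threshold 0.05, two-sided) in R 4.3.3. The sample was a block between classes, not between PPTx and control. The SE was back-calculated as the size of the log2 fold change over the square root of the F statistic. The 95% intervals were built from this SE, so both are approximate. Libraries needed 5 cells, or 3 with Top2a or Cdk1. Alternatives were DESeq2 1.42.0, library totals without TMM, libraries without hormone genes, other filters, cells thinned to 2700 UMIs (142 of the 1232 cells of all types, 50 control and 92 PPTx, were shallower and left out), other hormone ratios, no cells among the 5% deepest, other splits, blocks and each sample left out. Every called member was named with its values, those with the 5 smallest p-values also where fewer than 5 were called, the 6 members with the most UMIs, and of each partner list up to 4 called genes in each direction. Members and lists were chosen with earlier results of these data known. Promoters were taken from RefSeq on GRCm38.p6, with 29 of 31 members matched by symbol. Some genes of the marker and partner lists are not reported here.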

Additional observations from a re-analysis of the deposited data

Results flagged for a closer look

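Of 60 groups of 4 to 8 samples examined for members named in the comparisons, 2 held a sample far from the others by Dixon's criterion, and chance gives about 1 in 20. Hnrnpa0 was at 41.2 normalised CPM in Ppy cells of PPTx replicate 4, against 97.0 to 128 in the other 6 samples. That library held 48552 UMIs, the fewest of the Ppy libraries tested, so the value rests on few UMIs. Its alpha-cell markers summed to 21317 CPM, close to 21013 CPM in control replicate 3 and above the remaining Ppy libraries. Hnrnph1 was at 142 normalised CPM in insulin cells of PPTx replicate 2, against 59.8 to 95.7 in the other 7 samples.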

How the results depend on the processing

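Counts of called members moved with the processing, and the cause was not tested unless stated. In Gcg against insulin cells, the main settings gave 1 member, library totals without TMM 14 and filterByExpr 7. No filter on level, cells thinned to equal UMIs and a leading hormone at 4 times the next gave 0 each. Leaving out 1 sample at a time gave 0 to 1. In Ppy against insulin cells, the main settings gave 2 members, DESeq2 1 (Hnrnpa0), library totals 5 and filterByExpr 7. No filter and thinned cells gave 0 each, no cells among the 5% deepest 1, and leaving out 1 sample 0 to 3. Hnrnpa2b1 was at -0.0104 in thinned cells on the log2 scale. Between Ppy and Gcg cells library totals gave 3 members (Hnrnpab, Hnrnpk and Hnrnpu, lower) and leaving out 1 sample 0 to 1. With Top2a or Cdk1, the main settings gave 2 members, library totals 5, no filter 1 (Srsf5, lower) and thinned cells 0. Samples with at least 1 cell with Top2a or Cdk1 gave 1 (Srsf3). DESeq2 and filterByExpr gave 3 each, and leaving out 1 sample 1 to 2. Thinned cells split by whole counts, an alternative chosen after seeing the data, gave 1 (Hnrnpl, lower). The other cells with at least 2 UMIs of the replication markers, likewise chosen after seeing the data, gave 0, with Srsf3 at -0.10 on the log2 scale. Library totals moved the median log2 fold change of all genes from -0.07 to 0.44 in Gcg, from -0.02 to 0.09 in Ppy against insulin cells, from 0.05 to -0.35 between Ppy and Gcg cells and from -0.16 to 0.13 with Top2a or Cdk1. With Top2a or Cdk1 it was -0.63 without a filter and -0.64 in thinned cells, or -0.57 with the split by whole counts. For PPTx in insulin cells, PPTx in Ppy cells and the difference between them, the count of called members was 0 under every alternative run.

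Same-numbered control and PPTx samples deviated together with correlations of 0.082, 0.048, 0.044 and 0.21 over 4043 genes. Those of unlike numbers ran from -0.139 to 0.086. The numbers were not taken to pair the samples in the main fit, and whether they do was not settled. A replicate block called 0 members and 27 genes in insulin cells, against 13 genes without it. In the comparisons between cell classes, leaving out the sample block (no replicate block) called 1, 2, 0 and 2 members, the same counts as with it. No comparison of Sst with insulin cells was run, since no sample held 5 Sst cells. Depth limits the smaller classes most, since Gcg and Ppy libraries and those with Top2a or Cdk1 often held under 10 UMIs of a member.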
